A study of Mus musculus with 22 samples.

Results

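The genes described here encode the co-receptors that present lipopolysaccharide (LPS) to Toll-like receptor 4 (TLR4) and the first proteins that carry its signal into the cell. They are the co-receptor genes Cd14 and Ly96, the adaptor genes Myd88, Tirap, Ticam1 and Ticam2, the kinase genes Irak4, Irak1 and Irak2, and the ubiquitin ligase gene Traf6. They were chosen by name, and every array probe whose RefSeq accession belongs to one of them was taken. This gave 10 of the 20887 named genes on the array and 14 probes, with 3 probes for Irak1, 2 for Irak2 and 2 for Irak4. The accessions were NM_009841 (Cd14), NM_016923 (Ly96), NM_010851 (Myd88), NM_054096 (Tirap), NM_174989 (Ticam1), NM_173394 (Ticam2), NM_029926 (Irak4), NM_008363 and NM_001177974 (Irak1), NM_172161 (Irak2) and NM_009424 (Traf6). All 14 probes were well above background on all 22 arrays, so that no member was lost to a filter on dim probes.

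LPS is a glycolipid that Gram-negative bacteria carry in their outer membrane. CD14 binds single LPS molecules and hands them to MD-2, the product of Ly96, which sits on the outer part of TLR4 and is needed for the receptor to sense LPS. At the plasma membrane, TIRAP bridges the receptor to MyD88, which gathers the kinases IRAK4, IRAK1 and IRAK2 and, through them, TRAF6, and this arm leads to NF-κB and the MAP kinases. From endosomes, TRAM (Ticam2) bridges the receptor to TRIF (Ticam1), which leads to IRF3 and interferon-β. In macrophages both arms are active, and p38, one of the MAP kinases so activated, in turn activates the protein kinases MK2 and MK3.

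The cells were bone marrow-derived macrophages (BMDM) of wild-type animals (wt), of MK2-deficient animals (MK2-/-) and of animals deficient in MK2 as well as MK3 (MK2/3-/-), and which cells of these animals carry the deletion is not given in the sources used here. Per the labels all mice were male C57BL/6 (the methods name a C57BL/6J background for the deficient animals), aged 12 to 13 weeks for wt, 10 to 13 weeks for MK2-/- and 11 to 14 weeks for MK2/3-/-, and the marrow was grown in M-CSF for 9 days. Cultures were then kept for 360 min in medium alone or with 100 ng/ml LPS, and RNA of each was hybridised to its own 1-colour Agilent mouse array. There were 4 medium and 3 LPS arrays of wt, 4 and 4 of MK2-/-, and 3 and 4 of MK2/3-/- BMDM. The methods call the experiments independent of each other, and the labels give the arrays of a group up to 4 different ages, but they do not name the animal behind each culture.

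Each genotype had a slide of its own, holding its LPS as well as its medium arrays, so that in a direct comparison of genotypes the genotype and the slide cannot be told apart. The deleted genes went with the labels, since the Mapkapk2 (MK2) signal was lower than in wt by 3.28 in MK2-/- and by 3.87 in MK2/3-/- BMDM under LPS on the log2 scale, and Mapkapk3 (MK3) was lower by 4.35 in MK2/3-/- than in MK2-/- BMDM. In medium Mapkapk3 was lower by 1.73 in that comparison, at a mean of 11.16 against 12.90, and it was well above background on all 3 MK2/3-/- arrays. The Mapkapk2 probe was also well above background on every knockout array and higher with LPS. Its means in medium and with LPS were 8.88 and 11.61 in MK2-/-, 8.44 and 11.02 in MK2/3-/-, and 11.90 and 14.89 in wt BMDM. Between 61.1% and 82.7% of all probes were well above background on an array. All 6 macrophage marker genes examined were well above background on every array, and their summed normalised signal was lower in LPS-treated cultures (249744 to 343376) than in medium (501280 to 693049). The summed signal of 5 stromal markers spread widely within groups, from 709 to 47587 in MK2/3-/- and from 3097 to 103910 in wt BMDM in medium, and the summed signal of 5 B cell markers was lower with LPS in every genotype without overlap (662 to 1073 in medium against 308 to 390 with LPS in wt). That of 5 T and NK cell markers was higher with LPS in wt BMDM (865 to 1612 in medium against 1766 to 2641 with LPS) and, in medium, higher in MK2-/- (2143 to 4920) than in wt BMDM. That of 4 erythroid and mast cell markers was higher with LPS in wt (62.0 to 90.2 in medium against 122.8 to 157.2 with LPS) and in MK2/3-/- BMDM (125.9 to 128.6 against 132.0 to 273.6). The part of these markers in the results was not tested. Well above background on all arrays were 4 of 5 stromal, 5 of 7 neutrophil, 2 of 5 B cell, 1 of 5 T and NK cell, 2 of 5 dendritic and 1 of 4 erythroid and mast cell markers. The arrays labelled replicate 3 of MK2-/- BMDM, 1 with LPS and 1 in medium, carried Ddx3y at 1.99 and 2.01, against 10.1 to 11.3 on the other 20 arrays, although the label says male. On both, Eif2s3y was low (2.02 and 3.31, against 11.1 to 12.5) and Xist high (7.66 and 7.78, against 1.985 to 5.788). The LPS array of this replicate also had 2927 spots flagged as outliers, against 115 to 261 on the other arrays. It was the array with 82.7% of probes well above background. The wt medium array labelled replicate 4 had a median log2 signal of 8.80 over the 100 probes most raised by LPS in the other genotypes, against 5.31 to 7.04 on the other 10 medium arrays. Without the MK2-/- arrays in question, and without all 3, the counts of called genes among the 10 stayed as they were except for MK2/3-/- against wt under LPS, given there.

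To show the starting points of transcription of genes that moved together, the promoter windows of 2 genes that rose with LPS and 2 that fell are printed from RefSeq, build GRCm38.p6, from 250 bases before to 50 bases after the start, 5′ to 3′ on the gene's strand. A window was at hand for 7 of the 10 genes. Capitals mark matches, on either strand, to any of 6 motifs: the NF-κB motif, the interferon-stimulated response element (ISRE, GAAA, any 2 bases, then GAAA), the GAS element (TTCNNNGAA), the AP-1 site (TGANTCA), the CRE (TGACGTCA) and the TATA box (TATAAA).
Myd88 (chr9:119339969-119340268, minus strand): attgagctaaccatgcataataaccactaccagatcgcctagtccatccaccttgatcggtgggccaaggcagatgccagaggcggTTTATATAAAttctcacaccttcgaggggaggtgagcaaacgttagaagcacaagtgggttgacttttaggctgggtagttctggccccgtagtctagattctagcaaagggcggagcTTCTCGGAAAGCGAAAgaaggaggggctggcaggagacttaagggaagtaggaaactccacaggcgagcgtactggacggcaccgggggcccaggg
Irak2 (chr6:113638217-113638516, plus strand): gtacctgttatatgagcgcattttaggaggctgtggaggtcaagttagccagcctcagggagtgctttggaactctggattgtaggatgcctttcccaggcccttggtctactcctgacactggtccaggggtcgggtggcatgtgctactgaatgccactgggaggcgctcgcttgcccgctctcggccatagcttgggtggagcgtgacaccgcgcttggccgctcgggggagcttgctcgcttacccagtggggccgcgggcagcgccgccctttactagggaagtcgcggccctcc
Irak1 (chrX:74023872-74024171, minus strand): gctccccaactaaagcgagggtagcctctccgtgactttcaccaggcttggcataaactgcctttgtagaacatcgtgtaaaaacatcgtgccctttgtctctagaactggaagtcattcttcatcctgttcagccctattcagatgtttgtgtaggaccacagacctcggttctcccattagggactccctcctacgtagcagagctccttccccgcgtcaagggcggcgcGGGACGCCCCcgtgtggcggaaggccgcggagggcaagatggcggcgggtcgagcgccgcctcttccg
Irak4 (chr15:94543410-94543709, plus strand): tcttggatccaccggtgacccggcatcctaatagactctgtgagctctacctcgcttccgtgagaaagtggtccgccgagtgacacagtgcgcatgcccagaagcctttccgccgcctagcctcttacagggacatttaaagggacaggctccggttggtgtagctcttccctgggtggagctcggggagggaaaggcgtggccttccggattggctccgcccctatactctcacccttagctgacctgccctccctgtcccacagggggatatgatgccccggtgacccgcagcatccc
The Myd88 window held an ISRE match at -40 to -31 that overlapped a GAS match at -46 to -38, and a pair of overlapping TATA box matches between -164 and -155. ISRE matches were present in 3.44% and GAS matches in 8.3% of the 32841 windows of the same length in the table, and TATA box matches in 13.6%. The Irak1 window held 1 NF-κB motif match at -18 to -9, as did 8.46% of all windows. No match to the 6 motifs lay in the windows printed for Irak2 and Irak4, nor in those of Tirap, Ticam1 and Traf6. A match is a description of letters and not a site shown to be bound.

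The first question was how LPS changed these transcripts in each genotype. Values are the log2 of the processed signal after quantile normalisation over the 22 arrays, and differences are log2 differences with their standard error (SE). Comparisons were made with limma across 28103 probes, two-sided, with Benjamini-Hochberg adjustment, and a difference is called at an adjusted p below 0.05. In wt BMDM 7 of the 10 genes were called, 5 higher and 2 lower, where 42% of all probes tested were called, 18.3% higher and 23.7% lower. In MK2-/- BMDM all 10 were called, 8 higher and 2 lower, against 45.4% of all probes (17.6% higher, 27.8% lower). In MK2/3-/- BMDM 8 were called, 6 higher and 2 lower, against 48.6% (20.1% higher, 28.5% lower). The median log2 difference over the 10 genes was 0.48 in wt, 0.98 in MK2-/- and 0.96 in MK2/3-/- BMDM, where the medians over all probes were -0.064, -0.038 and -0.020. The genes lower in all 3 genotypes were Irak1 and Irak4. At the brightest probe the LPS and medium arrays did not overlap for 9 genes in wt (49% of all probes), 10 in MK2-/- (42.2%) and 7 in MK2/3-/- BMDM (50.5%). Scaled instead to the 75th percentile of each array, the median over all probes moved to 0.27, 0.26 and 0.26, and 59.6%, 52.6% and 53.3% of the called probes were higher with LPS in wt, MK2-/- and MK2/3-/- BMDM, against 43.6%, 38.8% and 41.4% after quantile normalisation. The called genes then numbered 8, 10 and 8, with the same 2 genes lower. In a bulk culture, fewer cells of a type and less RNA per cell cannot be told apart.

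**Figure D1:**
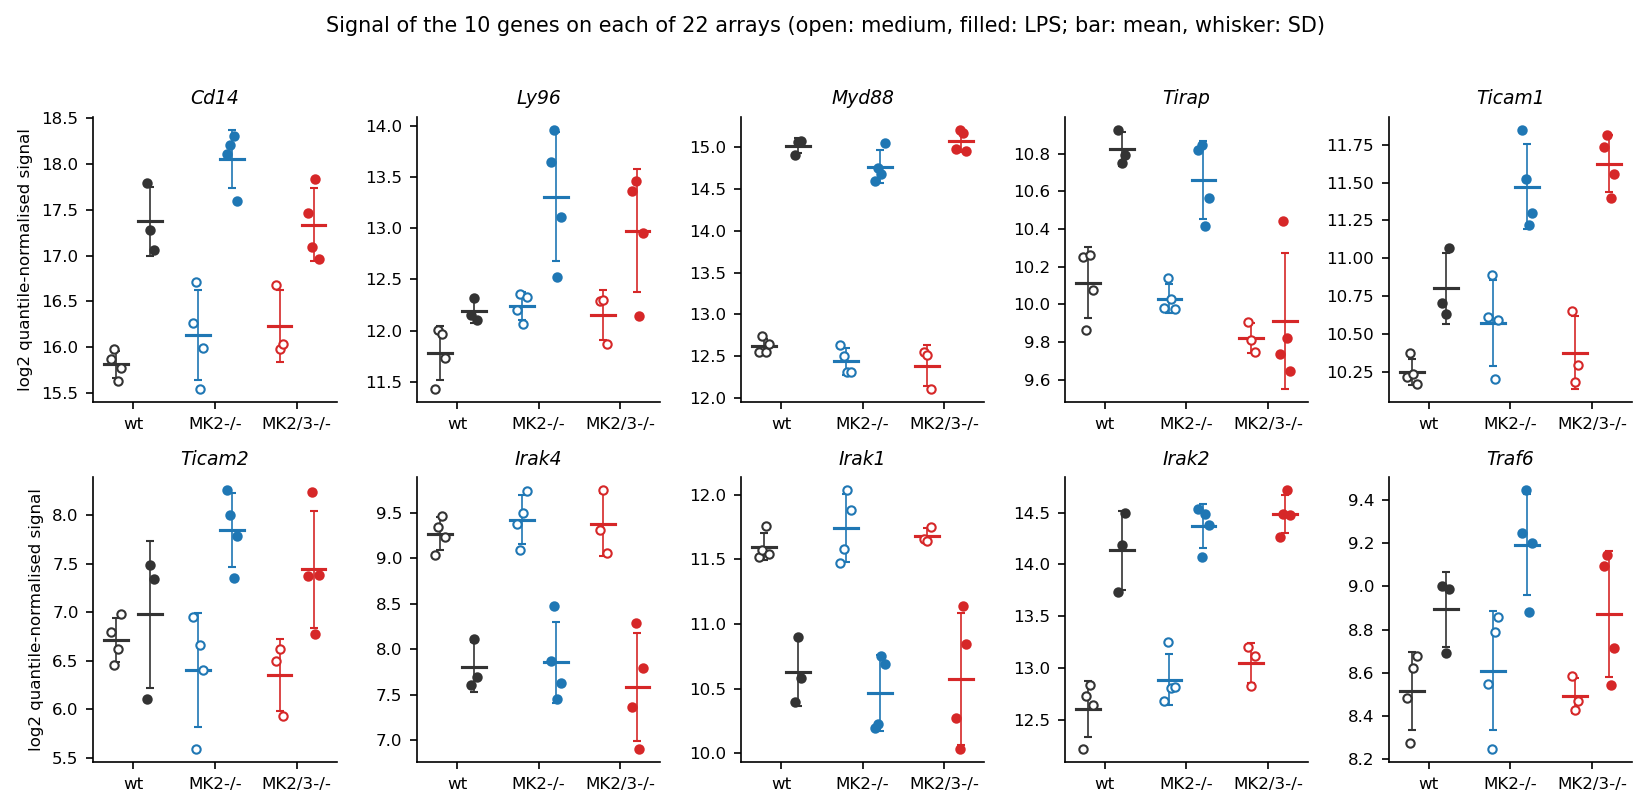
Log2 quantile-normalised signal (y axis) of the 10 genes, each at its brightest probe, on each of 22 arrays, by genotype (x axis), with open points for medium and filled points for LPS, bars at group means and whisker ends 1 SD away. Myd88, Irak2 and Cd14 lay higher and Irak4 and Irak1 lower with LPS in every genotype without overlap, whereas the MK2/3-/- Tirap points of both treatments overlapped.

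Of the co-receptors, Cd14, which encodes the LPS-binding protein anchored to the membrane, rose in all 3 genotypes. In wt BMDM its log2 signal was 15.87, 15.98, 15.63 and 15.77 in medium and 17.79, 17.28 and 17.06 with LPS. The MK2-/- values were 16.26, 16.71, 15.54 and 15.99 in medium and 18.11, 18.21, 18.31 and 17.60 with LPS, and in MK2/3-/- BMDM 16.68, 15.97 and 16.03 in medium and 17.47, 17.09, 17.83 and 16.96 with LPS. In no genotype did the LPS arrays overlap the medium arrays, although the highest MK2/3-/- medium array (16.68) lay close to the lowest LPS array of its genotype (16.96). The rise was 1.56 (SE 0.28, adjusted p = 0.000174) in wt, 1.93 (SE 0.26, adjusted p = 4.67e-06) in MK2-/- and 1.11 (SE 0.28, adjusted p = 0.00277) in MK2/3-/- BMDM. After quantile normalisation this is 2.96-fold, 3.81-fold and 2.15-fold. Over all settings tried, the Cd14 rise ranged from 1.35 to 2.30 in wt, 1.65 to 2.76 in MK2-/- and 0.94 to 2.09 in MK2/3-/- BMDM. The highest value of each genotype came with percentile scaling in place of quantile normalisation, so the size of the rise depends on the scaling.

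Ly96, encoding MD-2, differed less. In wt BMDM its log2 signal was 11.43, 12.00, 11.97 and 11.73 in medium and 12.15, 12.32 and 12.10 with LPS. The wt groups did not overlap, yet the difference of 0.41 (SE 0.31) had an adjusted p of 0.313 and was not called. In MK2-/- BMDM the signal was 12.20, 12.36, 12.07 and 12.33 in medium and 13.64, 13.96, 12.53 and 13.10 with LPS, a rise of 1.07 (SE 0.28, adjusted p = 0.00437), and the LPS array nearest to medium was the one labelled replicate 3. In MK2/3-/- BMDM it was 12.28, 12.30 and 11.87 in medium and 13.36, 13.46, 12.14 and 12.95 with LPS. There 1 LPS array lay within the range of medium, and the rise of 0.83 (SE 0.31, adjusted p = 0.0327) was lost when any of 5 arrays of that genotype was left out, with adjusted p between 0.0502 and 0.13.

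Among the adaptors Myd88, the adaptor that nearly all Toll-like receptors and the IL-1 receptor use, had the largest rise in every genotype at the brightest probes of the 10 genes. Its log2 signal in wt BMDM was 12.55, 12.74, 12.55 and 12.65 in medium and 14.91, 15.07 and 15.08 with LPS. The MK2-/- values were 12.63, 12.50, 12.30 and 12.31 in medium and 14.59, 14.75, 14.69 and 15.05 with LPS, and the MK2/3-/- values 12.54, 12.51 and 12.10 in medium and 14.98, 15.21, 15.17 and 14.95 with LPS. Arrays of a group lay close together, and medium and LPS arrays were far apart in every genotype. The differences were 2.40 (SE 0.15, adjusted p = 1.06e-09) in wt, 2.34 (SE 0.14, adjusted p = 2.02e-10) in MK2-/- and 2.69 (SE 0.15, adjusted p = 1.44e-10) in MK2/3-/- BMDM. After quantile normalisation this is 5.28-fold, 5.05-fold and 6.46-fold. Over all settings tried, the Myd88 rise ranged from 2.37 to 3.02 in wt, 2.24 to 2.96 in MK2-/- and 2.55 to 3.35 in MK2/3-/- BMDM. Percentile scaling gave the highest value here too.

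Tirap, encoding the adaptor that brings MyD88 to TLR4, passed the test in wt and MK2-/- BMDM and not in MK2/3-/- BMDM, although the difference between these responses was not called. Its log2 signal was 10.25, 9.86, 10.26 and 10.08 in medium and 10.93, 10.75 and 10.79 with LPS in wt BMDM, and 9.98, 10.14, 10.03 and 9.98 against 10.82, 10.84, 10.41 and 10.56 in MK2-/- BMDM. The MK2/3-/- values were 9.90, 9.81 and 9.75 in medium and 9.74, 10.44, 9.82 and 9.65 with LPS, so that 1 LPS array was high and the other 3 lay at the level of medium. The rise was 0.71 (SE 0.18, adjusted p = 0.00352) in wt and 0.63 (SE 0.17, adjusted p = 0.00393) in MK2-/- BMDM. In MK2/3-/- BMDM the difference was 0.090 (95% interval -0.29 to 0.46, adjusted p = 0.719), and it was -0.087 without the high array.

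In the TRIF arm Ticam1 rose in all 3 genotypes, and Ticam2 passed the test in both knockouts. Ticam1, encoding TRIF, had log2 signals of 10.22, 10.37, 10.23 and 10.17 in wt medium and 10.70, 10.63 and 11.07 in wt LPS arrays. They were 10.61, 10.89, 10.20 and 10.59 against 11.85, 11.52, 11.22 and 11.30 in MK2-/- BMDM, and 10.65, 10.18 and 10.30 against 11.73, 11.82, 11.40 and 11.55 in MK2/3-/- BMDM. No genotype had overlapping groups, and the wt LPS arrays lay lowest of the LPS-treated ones. The rise was 0.55 (SE 0.19, adjusted p = 0.0268) in wt, 0.90 (SE 0.18, adjusted p = 0.000338) in MK2-/- and 1.25 (SE 0.19, adjusted p = 2.25e-05) in MK2/3-/- BMDM. The wt call was lost without the LPS array labelled replicate 3 (0.42, adjusted p = 0.144), and without the medium array labelled replicate 1 or 4 (adjusted p = 0.0514 and 0.0574).

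Ticam2, encoding TRAM, was the dimmest member and the one with the largest standard errors among the brightest probes. Its log2 signal was 6.80, 6.46, 6.62 and 6.99 in wt medium and 6.11, 7.49 and 7.34 in wt LPS arrays, which overlapped. In MK2-/- BMDM it was 6.95, 5.59, 6.67 and 6.41 in medium and 8.26, 7.998, 7.35 and 7.79 with LPS, and in MK2/3-/- BMDM 6.50, 6.62 and 5.93 in medium and 7.37, 8.24, 6.78 and 7.38 with LPS. Both knockout genotypes showed no overlap between treatments. The difference was 0.26 in wt (95% interval -0.52 to 1.05, adjusted p = 0.618), 1.45 (SE 0.35, adjusted p = 0.00191) in MK2-/- and 1.09 (SE 0.38, adjusted p = 0.0213) in MK2/3-/- BMDM. The MK2/3-/- call was lost without the LPS array labelled replicate 2 (adjusted p = 0.0782) and without the medium array labelled replicate 3 (adjusted p = 0.106).

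**Figure D2:**
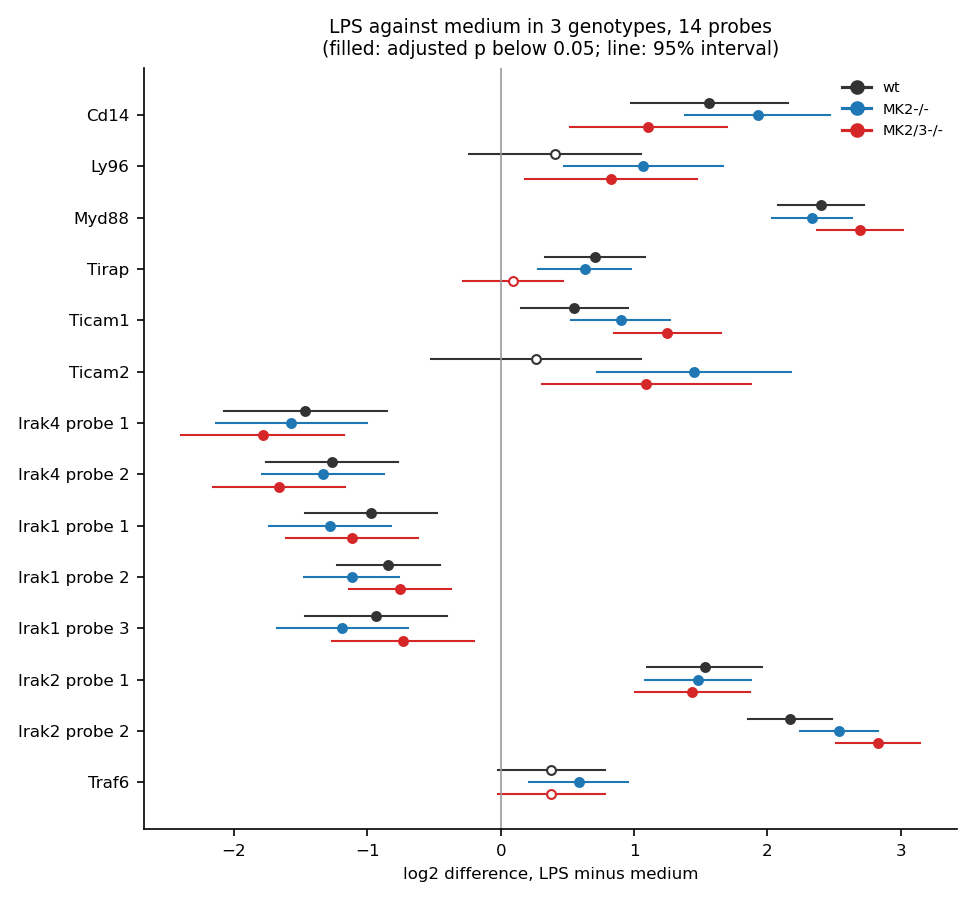
Log2 difference of LPS minus medium (x axis) for each of the 14 probes (y axis) in wt, MK2-/- and MK2/3-/- BMDM, with 95% intervals from limma and filled points at an adjusted p below 0.05. All Irak4 and Irak1 probes lay below 0, both Irak2 probes, Cd14 and Myd88 above 0, and Tirap of MK2/3-/- BMDM sat at 0.090.

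The IRAK kinases, which MyD88 gathers in sequence, moved in opposite directions. Irak4, encoding the kinase that joins MyD88 first, fell in each genotype. At its brighter probe the log2 signal was 9.04, 9.34, 9.47 and 9.24 in wt medium and 7.61, 8.12 and 7.69 in wt LPS arrays. It was 9.38, 9.09, 9.50 and 9.74 against 7.87, 8.48, 7.45 and 7.63 in MK2-/- BMDM, and 9.31, 9.75 and 9.06 against 7.37, 8.29, 6.90 and 7.80 in MK2/3-/- BMDM. All LPS arrays lay below all medium arrays of any genotype. The difference was -1.47 (SE 0.29, adjusted p = 0.000484) in wt, -1.57 (SE 0.27, adjusted p = 7.96e-05) in MK2-/- and -1.79 (SE 0.29, adjusted p = 4.42e-05) in MK2/3-/- BMDM. The other Irak4 probe gave -1.27, -1.33 and -1.66.

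Irak1, encoding the kinase that IRAK4 phosphorylates, also fell. Its brightest probe read 11.52, 11.58, 11.76 and 11.54 in wt medium and 10.39, 10.90 and 10.58 in wt LPS arrays. The MK2-/- values were 11.47, 11.58, 12.04 and 11.89 against 10.19, 10.23, 10.75 and 10.69, and the MK2/3-/- values 11.66, 11.65 and 11.75 against 10.27, 10.03, 11.14 and 10.85. The treatments did not overlap in any genotype. The difference was -0.98 (SE 0.24, adjusted p = 0.00254) in wt, -1.28 (SE 0.22, adjusted p = 7.12e-05) in MK2-/- and -1.11 (SE 0.24, adjusted p = 0.000604) in MK2/3-/- BMDM. All 3 Irak1 probes were called in each genotype, with differences from -0.98 to -0.84 in wt, from -1.28 to -1.12 in MK2-/- and from -1.11 to -0.73 in MK2/3-/- BMDM. Of these probes 2 carry the accession NM_008363 and 1 that of another transcript variant, NM_001177974.

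Irak2, encoding the second kinase that IRAK4 can recruit, rose instead. At its brighter probe the log2 signal was 12.22, 12.73, 12.83 and 12.64 in wt medium and 13.73, 14.19 and 14.49 in wt LPS arrays, with a difference of 1.53 (SE 0.21, adjusted p = 7.79e-06). The MK2-/- values were 12.69, 13.25, 12.81 and 12.81 against 14.54, 14.07, 14.49 and 14.38, a difference of 1.48 (SE 0.19, adjusted p = 2.78e-06). The MK2/3-/- values were 13.20, 12.83 and 13.12 against 14.27, 14.48, 14.72 and 14.47, a difference of 1.44 (SE 0.21, adjusted p = 9.9e-06). The medium and LPS ranges were apart in all 3 genotypes. The second Irak2 probe, with the same accession (NM_172161), gave larger values of 2.17 (SE 0.15) in wt, 2.54 (SE 0.14) in MK2-/- and 2.83 (SE 0.15) in MK2/3-/- BMDM. Both probes rose in every genotype, but they disagreed on the size of the rise. After quantile normalisation the second Irak2 probe rose more than Myd88 in MK2-/- (2.34 for Myd88) and MK2/3-/- BMDM (2.69), and less in wt BMDM (2.40).

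Traf6, the ubiquitin ligase that receives the signal from the IRAK kinases, changed least among the genes that rose in MK2-/- BMDM. Its log2 signal was 8.49, 8.28, 8.62 and 8.68 in wt medium and 9.00, 8.69 and 8.99 in wt LPS arrays. It was 8.55, 8.25, 8.79 and 8.86 against 9.25, 9.44, 8.88 and 9.20 in MK2-/- BMDM, and 8.59, 8.43 and 8.47 against 9.09, 9.14, 8.55 and 8.71 in MK2/3-/- BMDM. The wt and MK2-/- treatments did not overlap, by small margins (8.68 against 8.69 and 8.86 against 8.88), whereas the MK2/3-/- treatments did. The difference was 0.58 (SE 0.18, adjusted p = 0.0107) in MK2-/- BMDM, and 0.38 in both wt (95% interval -0.022 to 0.78, adjusted p = 0.123) and MK2/3-/- BMDM (95% interval -0.021 to 0.78, adjusted p = 0.112).

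The next question was whether the genotypes differed in these transcripts. In medium no gene was called in any of the 3 comparisons of genotypes, where 7.9% of all probes were called for MK2-/- against wt, 1.92% for MK2/3-/- against wt and 2.68% for MK2/3-/- against MK2-/-. At an unadjusted p below 0.05 there were 0, 1 and 0 of the 10 genes, where 7149, 4768 and 4182 of the 28103 probes passed. These counts lie below that background. The 1 gene was Irak2 for MK2/3-/- against wt BMDM, with a difference of 0.44 (95% interval 0.011 to 0.87, adjusted p = 0.281). Under LPS, 2 genes were called for MK2-/- against wt (background 11.6% of all probes), 2 for MK2/3-/- against wt (23.7%) and 1 for MK2/3-/- against MK2-/- (13.4%). Among 10 genes these counts lie near the background, and each comparison is between slides as well as genotypes. All 5 calls were lost where the fit held only the groups compared, with adjusted p between 0.0609 and 0.103.

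Under LPS, Ly96 was higher in MK2-/- than in wt BMDM by 1.12 (SE 0.31, adjusted p = 0.0269), and its LPS-treated arrays of these genotypes (12.53 to 13.96 and 12.10 to 12.32) did not overlap. It was 0.79 higher in MK2/3-/- BMDM, which was not called (95% interval 0.14 to 1.43, adjusted p = 0.0711). Ticam1 was higher than in wt by 0.67 (SE 0.19, adjusted p = 0.0321) in MK2-/- and by 0.83 (SE 0.19, adjusted p = 0.00491) in MK2/3-/- BMDM, again without overlap (11.22 to 11.85 and 11.40 to 11.82 against 10.63 to 11.07). The knockouts differed from each other by 0.15 for Ticam1 (95% interval -0.22 to 0.53, adjusted p = 0.636). Without the MK2-/- arrays labelled replicate 3, Ly96 was 1.38 higher in MK2-/- than in wt BMDM (adjusted p = 0.0105) and Ticam1 0.76 higher (adjusted p = 0.0223), while Ly96 in MK2/3-/- against wt then passed the threshold (adjusted p = 0.0482), which makes 3 called genes in that comparison. The Ly96 call was lost when any of 5 other LPS-treated arrays was left out (adjusted p 0.0514 to 0.082), and the Ticam1 call for MK2-/- when any of 4 was (adjusted p 0.0695 to 0.106).

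Tirap was lower under LPS in MK2/3-/- than in wt BMDM, with a difference of -0.91 (SE 0.18, adjusted p = 0.00153), and than in MK2-/- BMDM, with a difference of -0.75 (SE 0.17, adjusted p = 0.00561). All LPS-treated wt arrays lay above all LPS-treated MK2/3-/- arrays, whereas 1 MK2/3-/- array at 10.44 reached above the lowest MK2-/- array at 10.41. The Tirap difference against wt stayed past the threshold without any single array. Between wt and MK2-/- BMDM it was -0.16 (95% interval -0.54 to 0.21, adjusted p = 0.576). The second Irak2 probe was higher in MK2/3-/- than in wt BMDM under LPS by 0.67 (SE 0.15, adjusted p = 0.00376), with arrays of 11.55, 11.55, 11.81 and 11.78 against 10.72, 11.21 and 11.06, and MK2-/- arrays in between at 11.33, 11.26, 11.45 and 11.34. Its brighter probe differed by 0.35 (95% interval -0.084 to 0.78, adjusted p = 0.231), so that the probes of this gene disagree on the call.

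The remaining genotype differences of LPS-treated cultures were not called. Cd14 was 0.68 higher in MK2-/- than in wt BMDM (95% interval 0.094 to 1.27, adjusted p = 0.114), and MK2/3-/- lay below MK2-/- by a difference of -0.72 (95% interval -1.26 to -0.18, adjusted p = 0.0735) and near wt at -0.038 (95% interval -0.63 to 0.55, adjusted p = 0.94). Ticam2 was 0.87 higher in MK2-/- than in wt BMDM (95% interval 0.084 to 1.66, adjusted p = 0.13). For Myd88, Irak1, Irak4 and Traf6 the brightest probe gave differences from wt between -0.25 and 0.30. The second Irak4 probe was lower in MK2/3-/- than in wt BMDM, at -0.51 (95% interval -1.005 to -0.014, adjusted p = 0.125), without overlap. Against MK2-/- BMDM it gave -0.66 (95% interval -1.12 to -0.20, adjusted p = 0.0523). The brighter Irak4 probe gave -0.22 and -0.27 in these comparisons. In the order of group means, Myd88 ran from MK2/3-/- (15.08) through wt (15.02) to MK2-/- BMDM (14.77) under LPS, with each neighbour overlapping the next.

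**Figure D3:**
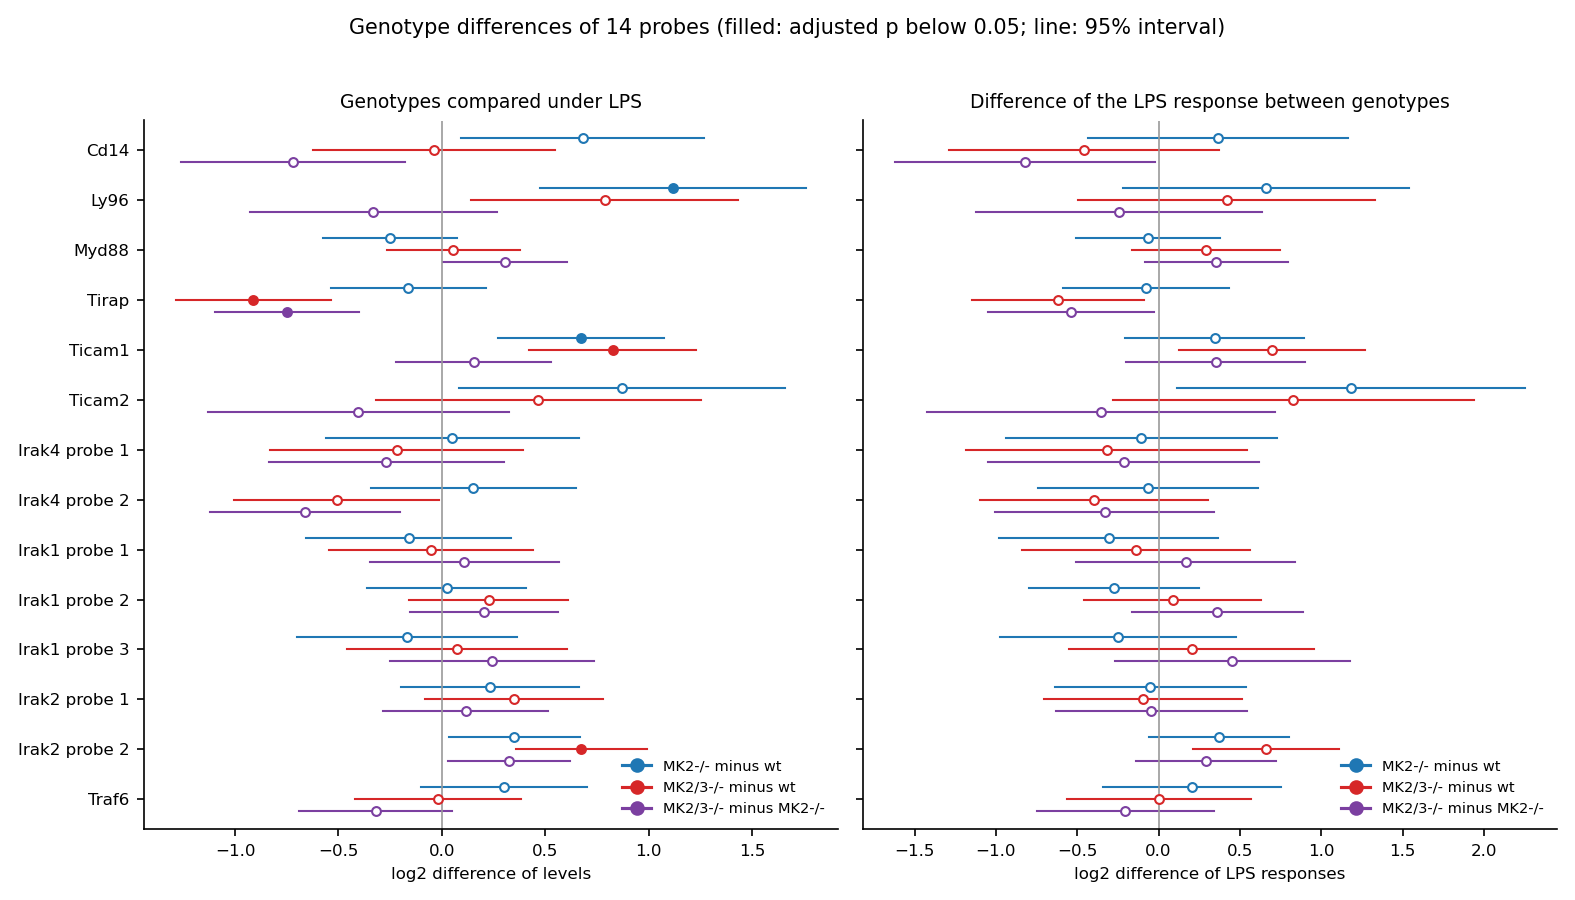
Log2 differences between genotypes (x axis) of the 14 probes (y axis), on the left between LPS-treated cultures and on the right between the LPS responses, with 95% intervals from limma and filled points at an adjusted p below 0.05. The filled points are Ly96 and Ticam1 for MK2-/- minus wt, Tirap, Ticam1 and the second Irak2 probe for MK2/3-/- minus wt, and Tirap for MK2/3-/- minus MK2-/-, and none is filled on the right.

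A difference in the LPS response itself is the interaction of genotype and treatment, in which an additive effect of the slide cancels. By limma 0 of the 10 genes were called in each of the 3 interactions, where 0% of all probes were called for MK2-/- against wt, 0.979% for MK2/3-/- against wt and 0.0676% for MK2/3-/- against MK2-/-. At an unadjusted p below 0.05 there were 1, 2 and 2 genes, where 2164, 3335 and 2463 of the 28103 probes passed. Among 10 genes these counts lie near that background. Ticam2 rose by 1.18 more in MK2-/- than in wt BMDM (95% interval 0.11 to 2.26, adjusted p = 0.635). Ticam1 rose by 0.70 more in MK2/3-/- than in wt BMDM (95% interval 0.13 to 1.27, adjusted p = 0.274). The LPS response of Tirap was lower in MK2/3-/- than in wt BMDM, at -0.62 (95% interval -1.15 to -0.089, adjusted p = 0.305), and lower than in MK2-/- BMDM, at -0.54 (95% interval -1.05 to -0.029, adjusted p = 0.537). Cd14 gave -0.82 for MK2/3-/- against MK2-/- BMDM (95% interval -1.62 to -0.022, adjusted p = 0.553). The second Irak2 probe gave 0.66 for MK2/3-/- against wt BMDM (95% interval 0.21 to 1.11, adjusted p = 0.16). For Myd88 the interval of the difference in response to wt was -0.50 to 0.37 in MK2-/- and -0.17 to 0.75 in MK2/3-/- BMDM, and for Irak4 it was -0.94 to 0.73 and -1.19 to 0.55.

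The other genes of the pathway, taken from 4 lists by role, give the setting. Of 46 such genes on the array 45 were tested. In wt BMDM LPS raised 19 and lowered 11 of them, and 15 were not called, with a median difference of 0.14. Without the MK2-/- arrays labelled replicate 3, and without all 3 arrays that stood apart, 18 rose and 11 fell. In MK2-/- BMDM 20 rose and 13 fell, and in MK2/3-/- BMDM 20 rose and 14 fell. The shares of all probes called are those given above for each genotype.

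Of 9 genes of the receptor and its delivery, wt BMDM showed 1 higher and 3 lower. Tlr4 itself, the receptor, fell by 1.78 (SE 0.27, adjusted p = 2.5e-05), from 10.87 to 11.64 in medium to 9.13 to 9.92 with LPS. Cnpy3, a chaperone needed to bring Toll-like receptors to the cell surface, fell by 1.91, and Itgb2, the β chain of the integrin CD11b/CD18, by 1.05. Cd180, a TLR4-related receptor, rose by 0.93 (adjusted p = 0.0215). In wt BMDM the receptor transcript was thus lower with LPS and that of the co-receptor Cd14 higher.

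Of 14 genes between TRAF6 and NF-κB, the TAK1 and IKK list, 6 were higher and 3 lower in wt BMDM. The largest rises were those of Map3k8 (3.72), encoding the kinase TPL2, and Peli1 (3.38), encoding the IRAK-binding ligase Pellino-1. Peli2 of the same family fell by 4.45, and Tab1, encoding a TAK1 partner, fell by 2.35. Of 8 genes of the TRIF branch 4 were higher and 2 lower. Ikbke rose by 3.19, Tank by 2.67 and Azi2 by 2.43, the products being an IRF3 kinase and adaptors of such kinases, and Tbkbp1 fell by 1.19.

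Of 14 inhibitors of the pathway 8 were higher and 3 lower in wt BMDM. Tnfaip3, encoding the ubiquitin-editing enzyme A20 that acts on TRAF6, rose by 5.87 (SE 0.35, adjusted p = 5.19e-10), from 9.97 to 12.15 in medium to 16.48 to 16.75 with LPS. Tnip3 rose by 3.87, Trim30a by 3.11 and Tnip1, encoding an A20 partner, by 2.62. Irak3, encoding IRAK-M, the family member that restrains signalling, was not among the 4 largest but rose by 2.23 (SE 0.31, adjusted p = 1.22e-05), and its value is given because it belongs to the IRAK family. Thus at 360 min the IRAK family split into Irak2 and Irak3, higher with LPS, and Irak1 and Irak4, lower with LPS, in wt BMDM.

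**Figure D4:**
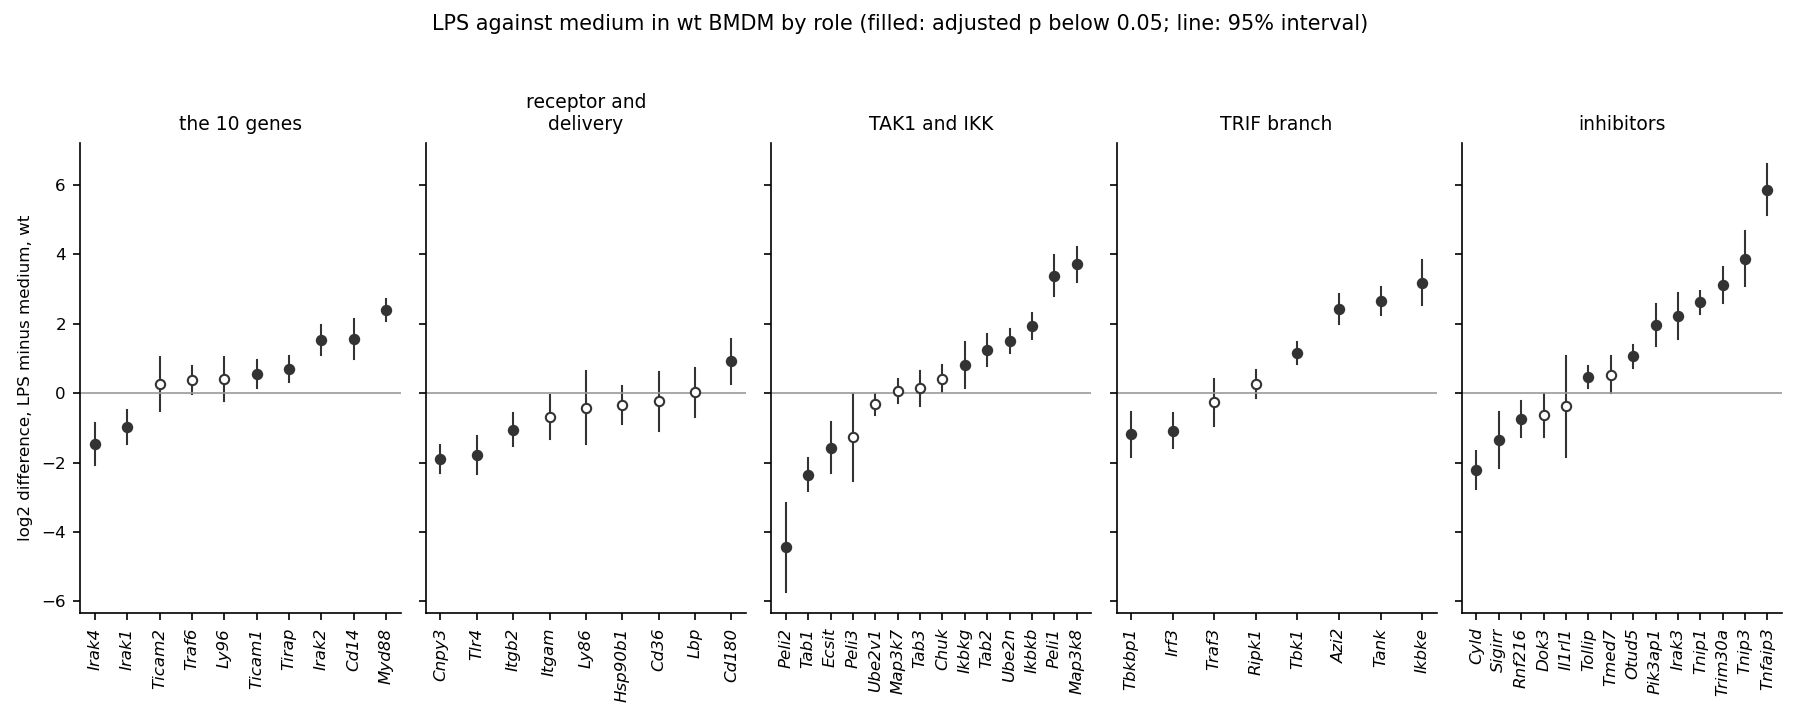
Log2 difference of LPS minus medium (y axis) in wt BMDM for the 10 genes at their brightest probes and the 45 other pathway genes (x axis) in 4 lists by role, with 95% intervals from limma and filled points at an adjusted p below 0.05. The 10 genes span -1.47 to 2.40, and the inhibitors reach 5.87 for Tnfaip3.

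Between LPS-treated genotypes, 2 of the 45 genes were called for MK2-/- against wt, 5 for MK2/3-/- against wt and 3 for MK2/3-/- against MK2-/- BMDM, all of them lower in the genotype named first. The backgrounds were the 11.6%, 23.7% and 13.4% of all probes given above, so that these counts lie below them. Against wt, Ecsit, encoding a TRAF6-binding protein, was lower in MK2-/- BMDM, at -1.28 (SE 0.38, adjusted p = 0.0366), from a fit in which 1 marked MK2-/- spot was left out, and in MK2/3-/- BMDM, at -1.89 (SE 0.35, adjusted p = 0.00116). Tab1 was lower too, at -0.78 (adjusted p = 0.0366) and -1.62 (adjusted p = 0.000137). Also lower in MK2/3-/- than in wt BMDM were Hsp90b1, encoding the chaperone gp96 of the Toll-like receptors, at -0.74 (adjusted p = 0.0463), and Map3k8, at -0.71 (adjusted p = 0.0384). In MK2/3-/- BMDM Dok3, an inhibitor, was also lower, at -1.50 (adjusted p = 0.00173) against wt and -1.31 (adjusted p = 0.00395) against MK2-/-. Irak3 was lower in MK2/3-/- than in MK2-/- BMDM, at -1.15 (SE 0.29, adjusted p = 0.0129). The other gene called in that comparison was in the TAK1 and IKK list. There Tab1 lay lower under LPS in MK2/3-/- (mean 8.30, range 7.94 to 8.59) than in MK2-/- BMDM (mean 9.14, range 8.72 to 9.35). By the same limma fit none of the 45 genes was called in an interaction or between genotypes in medium.

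By likeness of pattern, given as Pearson's r of the log2 signal over the 22 arrays of both treatments with no test, the closest genes to Myd88 were Icam1 (0.993), Dhx58 (0.992) and Casp4 (0.992). Those closest to Irak2 were Tmem171 (0.977), Nlrp3 (0.971) and Atp2c2 (0.969), and those closest to Cd14 were Fcgr2b (0.943), Ccl9 (0.935) and Cdc42ep2 (0.934). For Ly96 they were P2ry10b (0.931), Sfswap (0.913) and Tbc1d23 (0.911). Ticam1 was closest to Arl5b (0.958), Fbrs (0.955) and Diaph1 (0.943), and Ticam2 to Sh3bgrl2 (0.894), Ahr (0.884) and Fbxo30 (0.871). The falling genes had their own neighbours, Abcc3 (0.978), Gm6525 (0.972) and Reep5 (0.971) for Irak1, and Wdr13 (0.973), Rmnd5a (0.963) and Zfp953 (0.962) for Irak4. Tirap and Traf6 had the lowest closest values, with Cnppd1 (0.862), Polr3d (0.859) and Abhd2 (0.852), and with Ube2w (0.883), Dennd4a (0.88) and Zfr (0.866). All arrays share the 2 treatments, so that genes with a large LPS difference are alike in this measure.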

How the data were processed

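RNA of 22 BMDM cultures was labelled with Cy3 and hybridised to Agilent SurePrint mouse arrays. Per the file headers, the authors' deposited scanner output came from Feature Extraction 11.0.1.1 with, for each spot, a processed intensity already corrected for background, unprocessed median intensities of spot and surroundings, and flags (outlier, saturated, well above background). The deposited series table holds log2 values that the methods call quantile normalised with a baseline at the median over samples. Each array of it correlated at r of 0.993 or more with the quantile-normalised log2 values used here, once these were centred on each probe's median over the arrays. The genome build of the probe design is not given in the sources used here.

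Here, control spots and outlier-flagged spots were left out, log2 processed intensities of the spots were quantile normalised over the 22 arrays, and spots of a probe were then averaged. Probes were named through their RefSeq accession, and testing took in the 28103 probes with an NCBI accession that 3 or more arrays measured well above background. Limma 3.58.1 in R 4.3.3 was fitted with a mean per group over all arrays and no block, and 12 contrasts were taken, each adjusted with Benjamini-Hochberg over all probes. A gene was called at its brightest probe, and its other probes are given beside it. The genes, the pathway lists and the marker lists were chosen with earlier results of these data known. All members are named. Of each pathway list the named genes are up to 4 with the largest called LPS difference in wt and up to 3 with the largest called difference in each comparison of LPS-treated genotypes, and for each member the 3 genes with the highest correlation. The steps were tested on simulated data.

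The alternatives were 75th percentile scaling, background correction of the median intensities with normexp (offset 50), in place of mean intensities, which the files used do not give, the deposited log2 values, other probe filters, 1 probe per gene, array weights, a fit of only the groups compared, the methods' t-test, the replicate number as a block and leaving out each array. The number of arrays limits the precision of each value. Arrays of a group differed by a median of at least 0.247 on the log2 scale and none was a duplicate.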

Additional observations from a re-analysis of the deposited data

How the results depend on the processing

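With LPS, 6 to 7 genes in wt, 10 in MK2-/- and 6 to 9 in MK2/3-/- BMDM were called when each array was left out in turn, and 26 to 31 of the pathway genes in wt BMDM (30 with all arrays). Between LPS-treated genotypes the ranges were 0 to 2 for MK2-/- against wt, 2 to 3 for MK2/3-/- against wt and 1 to 2 for MK2/3-/- against MK2-/-, and the interactions and the medium comparisons stayed at 0. The LPS difference of Tirap in MK2/3-/- BMDM was -0.0871 without the LPS array labelled replicate 2 (adjusted p = 0.688) and rose to 0.178 at most when others were left out. At a change of at least 2-fold, 4 genes were called in wt with LPS, 1 for MK2-/- against wt, 0 for MK2/3-/- against wt and 0 for MK2/3-/- against MK2-/-. Fitted with only the groups compared, or with adjusted p-values of the methods' t-test, each of these comparisons of LPS-treated genotypes had 0 calls, where the former has fewer arrays to estimate the spread. By the t-test at its unadjusted threshold MK2/3-/- against MK2-/- had 3 under LPS and 1 in medium, and MK2-/- against wt had 1 in medium. The shares of all probes called at 2-fold and at this unadjusted threshold are not given here. The counts at these settings are therefore not set against a background. Array weights gave 2 for MK2/3-/- against MK2-/- under LPS. With 75th percentile scaling the median LPS difference of all probes in wt BMDM moved from -0.064 to 0.27, as given above with the counts. Traf6 in wt BMDM then passed (0.46, adjusted p = 0.0435), Ticam1 for MK2-/- against wt under LPS did not (0.52, adjusted p = 0.0723), Ticam2 there did (1.14, adjusted p = 0.0191) and the second Irak2 probe for MK2/3-/- against wt did not (0.44, adjusted p = 0.0622). Irak1 and Irak4 stayed lower with LPS under every alternative that gave them a value. The cause of these shifts was not tested. LPS and medium arrays of a genotype deviated together (r above 0.1) in 7 of 10 pairs that shared a replicate number, against 5 of 30 that did not, and in 7 of 10 pairs that shared the letter of the array name, all 10 of them equal in age. The MK2-/- arrays labelled replicate 3, which stood apart by their low Ddx3y signal, shared replicate number, letter and age. Their deviations correlated at r of -0.075. A pairing was taken as given only where every pair passed, so whether the arrays are paired was not settled. With the replicate number as a block (estimated correlation 0.118), and likewise with the letter as a replicate block (0.143), the counts were 7, 10 and 8 with LPS, 2, 2 and 1 between LPS-treated genotypes and 0 elsewhere. The t-test gives no interaction, and slide as a block could not be fitted because each genotype lay on its own slide. All member probes lay well above background on every array. Ticam2 was still the dimmest member, with the largest standard errors among the brightest probes. The part of dimness in these values was not tested.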
